A study of Mus musculus with 60 samples.

Results

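The genes described are 10 that epithelial cells use to hold together and to splice their transcripts: Cdh1, Epcam, Cldn1, Cldn3, Cldn4, Cldn7, Esrp1, Esrp2, Spint1 and Grhl2. They were chosen by symbol, and all 10 of 10 were found among the 54838 genes of the tissue table and among the 46517 genes of the fibroblast table. The mice carry CD74-NRG1, a fusion of a membrane protein with the ligand neuregulin 1, placed in the Rosa26 locus behind a stop cassette flanked by FRT sites. A Flp deleter allele at the same locus removes that cassette early in the embryo, so the fusion can be made in nearly all tissues, and normal and tumour tissue of Rosa26CD74-NRG1/Flp animals share it. Libraries of 3′ ends came from 42 tissue samples of 9 such mice: 8 normal livers, 7 lungs, 6 spleens, 6 muscles, 2 brains, 1 kidney, 3 liver tumours, sarcomas of 6 mice in 7 libraries, and the intestine tumour of 1 mouse in 2 libraries. Another 18 libraries came from embryonic fibroblasts of 9 embryos at passages 1 and 3, labelled CD74-NRG1 negative (Rosa26Flp/Flp), heterozygous or homozygous, 3 embryos each. The liver tumour of M00249 is titled only as liver and is a tumour by its group label alone. No age is given in the sources used here, and no tissue library comes from a mouse without the fusion.

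Epithelial cells are joined by adherens junctions, built on the cadherin Cdh1, and by tight junctions, built from claudins, which seal the gap between neighbouring cells. Which claudins a tissue makes sets how tight the seal is and what passes through it. The RNA-binding proteins Esrp1 and Esrp2 switch many transcripts to the forms used by epithelia, Spint1 restrains surface serine proteases such as matriptase, and Grhl2 is a transcription factor that keeps cadherin and claudin genes on. Mesenchymal repressors of the Zeb and Snail families bind CACCTG boxes and turn several of these genes off.

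Levels are CPM, each gene's count scaled to a library total common to all libraries. The libraries held 4837029 to 10089202 counts in tissues and 3107529 to 5511781 in fibroblasts, so that 0 counts allow up to 0.297 to 0.62 CPM in a tissue library, for counting error only. The libraries labelled muscle also held markers of stratified epithelium: the summed level of 14 epidermal markers was 4656 to 14580 CPM there, 501 to 8287 CPM in the sarcomas and 13.4 to 88.4 CPM in all other groups. The muscles of M00237 and M00238 stood at 12424 and 14580 CPM of these markers, against at most 6435 in the other 4 muscles. Both libraries of the intestine tumour went against an intestinal epithelium, with 3.6 and 3.77 CPM summed over 10 markers and 4 of those markers (Cdx1, Cdx2, Muc2 and Gpa33) at 0, beside 4539 and 4401 CPM of 10 leukocyte markers. In bulk tissue, fewer cells of a type and less RNA per cell cannot be told apart. Fold changes use TMM scaling, which assumes that most genes do not differ, while plain CPM shifts all genes by 0.96 on the log2 scale for sarcoma against muscle, -0.89 for muscle against lung, 0.96 for sarcoma against liver tumour, -0.9 for liver tumour against lung, 0.18 for liver tumour against normal liver and 0.15 for sarcoma against lung.

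Promoters of 6 of the 10 genes were found in a RefSeq table of GRCm38.p6 (Spint1, Cldn1, Cldn3, Cldn4, Cldn7 and Epcam), each as 300 bases from 250 before to 50 after an annotated start. Cldn7 has 2 entries. The letters CACCTG, searched on both strands so that CAGGTG also counts, were present for 4 of the 6 genes. A gene was counted if any of its entries held them: of the 2 Cldn7 entries, the first had 0 matches and the second 2. Counted per promoter, 4 of the 7 entries of these genes held them, beside 20.2% of all 32851 promoters, a difference that was not tested. Windows of 26 bases around 1 match per gene near its start are shown for these 4 genes. Cldn4 was lower in sarcoma than in muscle (log2 fold change -3.81), and its value against lung (0.46) did not pass. Cldn3, Cldn7 and Epcam were lower in sarcoma than in lung (-7.32, -5.17 and -1.81). Against muscle Epcam did not pass (-0.01), and Cldn3 and Cldn7 could not be tested. Capitals mark the match, and letters run 5′ to 3′ on the gene's own strand.
Cldn4: ttaactgcagCACCTGtggccgccct
Cldn3: aagccacaggCAGGTGcaggggcagt
Cldn7: acttccggttCAGGTGagtgtccctt
Epcam: ccataaaaccCAGGTGtggaggagaa
The Cldn4 window lies on the minus strand at chr5:134946933-134946958, and its match begins 14 bases before the start, with the reverse letters CAGGTG again 11 bases after it. The Cldn3 window lies on the plus strand at chr5:134986235-134986260, 31 bases after the start. The Cldn7 window is at chr11:69965354-69965379, plus strand, 57 bases before the second annotated start, and the Epcam window is at chr17:87635950-87635975, plus strand, 19 bases before the start. The letters were not in the promoters of Cldn1 and Spint1. Spint1 was lower in sarcoma than in both muscle (-3.89) and lung (-2.99), and Cldn1 was lower than in neither (0.14 and 2.5). AACCGGTT, a full consensus for grainyhead-like factors such as Grhl2, was in 0 of the 6 genes' promoters and in 0.146% of all promoters. These matches describe letters and were not tested as binding sites.

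**Figure D1:**
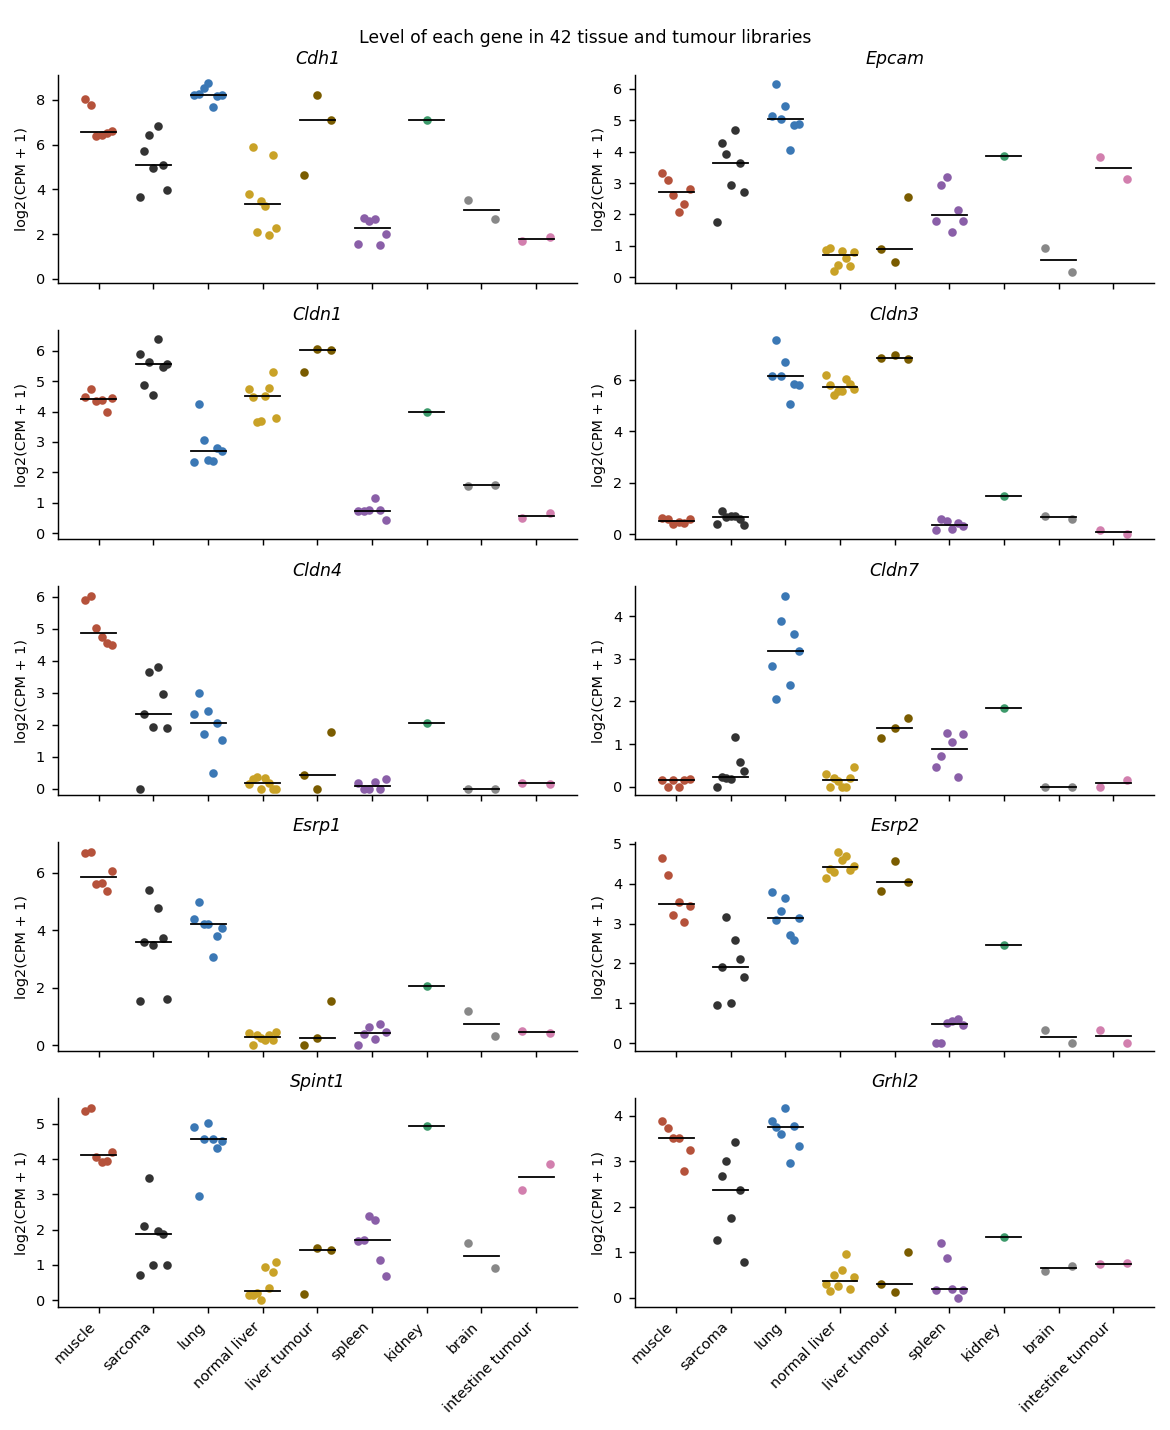
Level of each of the 10 genes in 42 tissue and tumour libraries, as log2(CPM + 1) on the vertical axis, with 1 point per library and a line at the median of each group. Cldn3 separates lung and liver from muscle and sarcoma, Cldn4 and Esrp1 are highest in muscle, and Cldn1 is higher in the sarcomas than in the lungs.

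Cdh1 (ENSMUSG00000000303), the cadherin of adherens junctions, ran from 202 through a median of 298 to 436 CPM in lung and from 81.7 through 93.9 to 264 CPM in muscle. It was at 135 CPM in the kidney and at 24.1, 300 and 136 CPM in the liver tumours of M00236, M00248 and M00249. The sarcomas lay between 11.8 and 84.2 CPM with a median of 40.7, and normal livers between 2.84 and 59.4 CPM with a median of 9.37. The 2 muscles with the most epidermal markers, at 264 and 217 CPM, stood above the other 4, at 81.7 to 96.2 CPM, and the ranges of sarcoma and muscle overlapped between 81.7 and 84.2 CPM. Sarcoma ranges of each gene are per mouse, with the T1 and T2 libraries of M00245 summed. Taken singly, these held 113 and 33.4 CPM of Cdh1, and T1 also exceeded the ranges below for Epcam (24.8 CPM), Cldn1 (81.7 CPM) and Cldn7 (1.24 CPM), among others. By mean log2(CPM + 1) the order was lung, muscle, liver tumour, sarcoma, normal liver, spleen. On plain CPM, of the neighbours only lung and muscle differed (1.31, adjusted p = 0.019, exact permutation test). After TMM scaling that difference was 0.47 (adjusted p = 0.24), and only normal liver and spleen differed (2.02, adjusted p = 0.011, exact permutation test).

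Such neighbouring groups were compared for every gene by a two-sided exact permutation test over mice, with Benjamini-Hochberg adjustment over 50 pairs. Of these pairs, 12 differed on plain CPM, 14 after TMM scaling and 10 on both. With 3 liver tumours against 6 sarcomas the smallest p the test can give is 0.024.

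Epcam (ENSMUSG00000045394), a surface adhesion protein that binds claudins, was highest in lung, from 15.6 through 32.1 to 70.4 CPM. The sarcomas ran from 2.39 through 10.5 to 18.4 CPM and the muscles from 3.24 through 5.58 to 8.93 CPM. The kidney held 13.6 CPM, the intestine tumour 13.1 and 7.77 CPM, the liver tumours 0.842, 0.396 and 4.81 CPM, and normal livers at most 0.901 CPM. Lung stood above sarcoma, its neighbour in the order, by 1.78 on the log2(CPM + 1) scale (adjusted p = 0.019, exact permutation test; 1.84 after TMM scaling). The next neighbours, sarcoma and muscle, overlapped and did not differ beyond their spread (0.59, adjusted p = 0.34; -0.24 after TMM scaling).

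The claudins divided the tissues. Cldn1 (ENSMUSG00000022512), a claudin needed for the skin barrier, was at 38.2, 65.9 and 63.8 CPM in the liver tumours of M00236, M00248 and M00249, and from 22.5 through 47.1 to 60 CPM in the sarcomas. Muscle ran from 14.7 through 20.3 to 25.7 CPM, normal liver from 11.6 through 21.5 to 38.1 CPM, lung from 4.06 through 5.54 to 18 CPM, and the kidney held 14.9 CPM. Each of the 6 sarcomas exceeded every lung, and 5 of 6 exceeded every muscle in plain CPM. That excess of 1.01 over muscle (adjusted p = 0.022, exact permutation test) became 0.07 (adjusted p = 0.8) after TMM scaling. Normal liver stood above lung on both scales, by 1.52 and 2.51 (adjusted p = 0.016 and 0.011, exact permutation test).

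Cldn3 (ENSMUSG00000070473), a sealing claudin of simple epithelia, was at 114, 125 and 111 CPM in the liver tumours of M00236, M00248 and M00249. Lung ran from 32.6 through 69.5 to 186 CPM and normal liver from 41.7 through 51.6 to 71.7 CPM. Muscle, with its epithelial markers, held only 0.332 to 0.551 CPM, the sarcomas 0.29 to 0.87 CPM and the kidney 1.79 CPM. Lung and both kinds of liver sample thus did not overlap with any other group. Normal liver stood 5.14 above sarcoma, the next group, on the log2(CPM + 1) scale (adjusted p = 0.016, exact permutation test; 5.94 after TMM scaling). On that scale neither liver tumour and lung nor lung and normal liver, the neighbours above, differed beyond their spread.

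Cldn4 (ENSMUSG00000047501), its relative and direct neighbour on chromosome 5 with 0 genes between them in the RefSeq table, was distributed differently. Muscle ran from 21.3 through 28.4 to 63.7 CPM, sarcoma from 0 through 3.38 to 11.4 CPM, and lung from 0.406 through 3.19 to 6.96 CPM. The kidney held 3.17 CPM, the liver tumours 0.361, 0 and 2.41 CPM, and normal livers at most 0.286 CPM. All 6 muscles exceeded all sarcomas, the next group in the order, by 2.92 on the log2(CPM + 1) scale (adjusted p = 0.017, exact permutation test; 3.69 after TMM scaling). Over the 42 libraries the correlation of Cldn3 with Cldn4 was -0.26 (Spearman 0.02), a description over libraries that share tissues.

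Cldn7 (ENSMUSG00000018569), a claudin of basolateral membranes, was found mainly in lung, from 3.18 through 8.0 to 21.2 CPM. It was at 1.2, 1.59 and 2.03 CPM in the liver tumours, 2.62 CPM in the kidney, at most 1.38 CPM in spleen, at most 0.827 CPM in the sarcomas and at most 0.13 CPM in muscle. Every lung exceeded every other library in plain CPM, while no neighbouring pair passed the permutation test on either scale. For lung above liver tumour the unadjusted p on plain CPM was 0.017, the smallest this test can give with 7 and 3 mice. On plain CPM lung and liver tumour did not overlap, so no smaller p was possible with these mice. After TMM scaling they overlapped, at 2.2 to 16.2 CPM in lung and 1.64 to 2.51 CPM in liver tumour. The adjusted p for lung above liver tumour was 0.064 on plain CPM and 0.079 after TMM scaling.

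Esrp1 and Esrp2, which share their role in epithelial splicing, were distributed differently. Esrp1 (ENSMUSG00000040728) ran from 40.5 through 56.8 to 104 CPM in muscle, from 7.31 through 17.5 to 30.6 CPM in lung and from 1.91 through 10.7 to 41.1 CPM in the sarcomas, with 3.17 CPM in the kidney. Normal livers held at most 0.372 CPM and the liver tumours 0, 0.198 and 1.9 CPM. Muscle stood above lung without overlap, by 1.9 on the log2(CPM + 1) scale (adjusted p = 0.016, exact permutation test; 2.71 after TMM scaling), and lung and sarcoma overlapped.

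Esrp2 (ENSMUSG00000084128) was instead highest in normal liver, from 16.8 through 20.2 to 26.8 CPM, with 13.0, 22.6 and 15.6 CPM in the liver tumours of M00236, M00248 and M00249. Muscle followed at 7.17 to 23.9 CPM, lung at 5.01 to 12.9 CPM, the kidney at 4.55 CPM and the sarcomas at 0.955 to 7.98 CPM. The liver samples therefore held Esrp2 almost without Esrp1, and muscle held both. Lung stood above sarcoma by 1.34 (adjusted p = 0.029) and sarcoma above spleen by 1.49 (adjusted p = 0.017, exact permutation tests), both also after TMM scaling. Counts at 3′ ends do not show which splice forms were made.

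**Figure D2:**
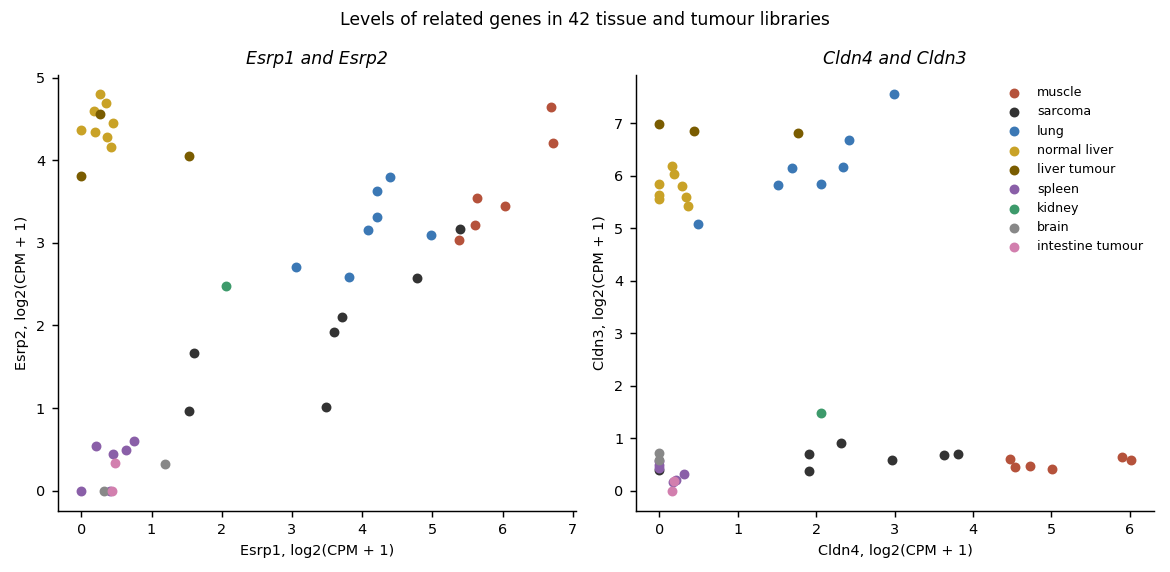
Esrp2 against Esrp1 (left) and Cldn3 against Cldn4 (right) in the 42 tissue and tumour libraries, both axes as log2(CPM + 1), 1 point per library and 1 colour per group. Liver samples lie high on Esrp2 and near 0 on Esrp1, and muscle lies high on Cldn4 and near 0 on Cldn3.

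Spint1 (ENSMUSG00000027315), the protease inhibitor, ran from 14.1 through 16.4 to 42.8 CPM in muscle and from 6.66 through 22.6 to 31.3 CPM in lung, with 29.6 CPM in the kidney. The intestine tumour held 7.73 and 13.6 CPM, the sarcomas 0.637 through 1.89 to 10.1 CPM, the liver tumours 0.12, 1.78 and 1.65 CPM, and normal livers 0 to 1.12 CPM. All muscles exceeded all sarcomas, and every lung but that of M00238 exceeded every sarcoma. Lung stood above sarcoma, its neighbour in the order, by 2.71 on the log2(CPM + 1) scale (adjusted p = 0.017, exact permutation test).

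Grhl2 (ENSMUSG00000022286), the transcription factor, ran from 6.77 through 12.6 to 17.1 CPM in lung, from 5.86 through 10.4 to 13.7 CPM in muscle and from 0.724 through 3.89 to 7.08 CPM in the sarcomas. The kidney held 1.52 CPM, and the livers, spleens, liver tumours and the intestine tumour at most 1.3 CPM. Lung and muscle overlapped, and muscle stood above sarcoma by 1.37 on the log2(CPM + 1) scale (adjusted p = 0.029, exact permutation test; 2.12 after TMM scaling). Grhl2 followed Esrp1 closely over the 42 libraries (Pearson 0.94, Spearman 0.87), the highest value of the 45 pairs among these genes, again over libraries that share tissues.

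Sarcoma was then compared with muscle by edgeR's quasi-likelihood test, with adjustment over all genes. Of the 8 genes tested, 6 fell in sarcoma, 0 rose and 2 did not pass, where 64.9% of all 14690 genes passed in either direction, 31.4% lower and 33.6% higher. The median log2 fold change was -2.78 for these 8 and 0.06 for all genes. Cldn3 and Cldn7 were too low in both tissues to test, so that the 6 are not all members.

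Spint1 fell most, with a log2 fold change of -3.89 (SE 0.57, adjusted p = 4.3e-05, n = 6 and 6 mice), followed by Cldn4 at -3.81 (SE 0.57, adjusted p = 5.7e-05). Both splicing factors fell, Esrp1 by 3.23 (SE 0.59) and Esrp2 by 2.98 (SE 0.45) on the log2 scale, with adjusted p of 2.8e-04 and 5.9e-05. Cdh1 fell by 2.59 (SE 0.48, adjusted p = 3.2e-04) and Grhl2 by 2.3 (SE 0.44, adjusted p = 4.6e-04). These 6 calls held under all 23 alternatives, among them plain library totals, where Grhl2 was at -1.35 and Spint1 at -2.94, and leaving out the muscles of M00237 and M00238, where Cdh1 was at -2.1.

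Cldn1 and Epcam did not move with the others. Cldn1 was at 0.14 (SE 0.2, adjusted p = 0.55) and Epcam at -0.01 (SE 0.44, adjusted p = 0.98) on the TMM scale, and at 1.12 (adjusted p = 0.00058) and 0.89 (adjusted p = 0.071) on plain library totals, so that Cldn1 was called higher in sarcoma only without scaling factors. That change of scale also turned all genes from 4931 higher and 4609 lower into 9267 higher and 2018 lower.

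Epidermal markers differed between the same tissues, and not all in one direction. Of 14, 10 were lower in sarcoma, 3 were higher and 1 did not pass, with a median log2 fold change of -2.44. The 3 higher ones were Krt1 (5.41, SE 0.86), Krt77 (7.69, SE 0.73) and Flg2 (7.33, SE 0.86), all made by cornifying skin. In muscle Krt1 was at 0.997 to 4.02 CPM, Krt77 at most at 0.478 and Flg2 at most at 0.399 CPM, while Lor was at 1702 to 4400 CPM and Krt15 at 499 to 1003 CPM. In the sarcoma libraries Krt1 was at 18.4 to 565 CPM and Lor at 43.5 to 496 CPM. The epithelium in the muscle libraries and that in the sarcoma libraries therefore differed in these markers, which were named after their values were seen. Their part in the fall of the 6 genes was not tested.

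**Figure D3:**
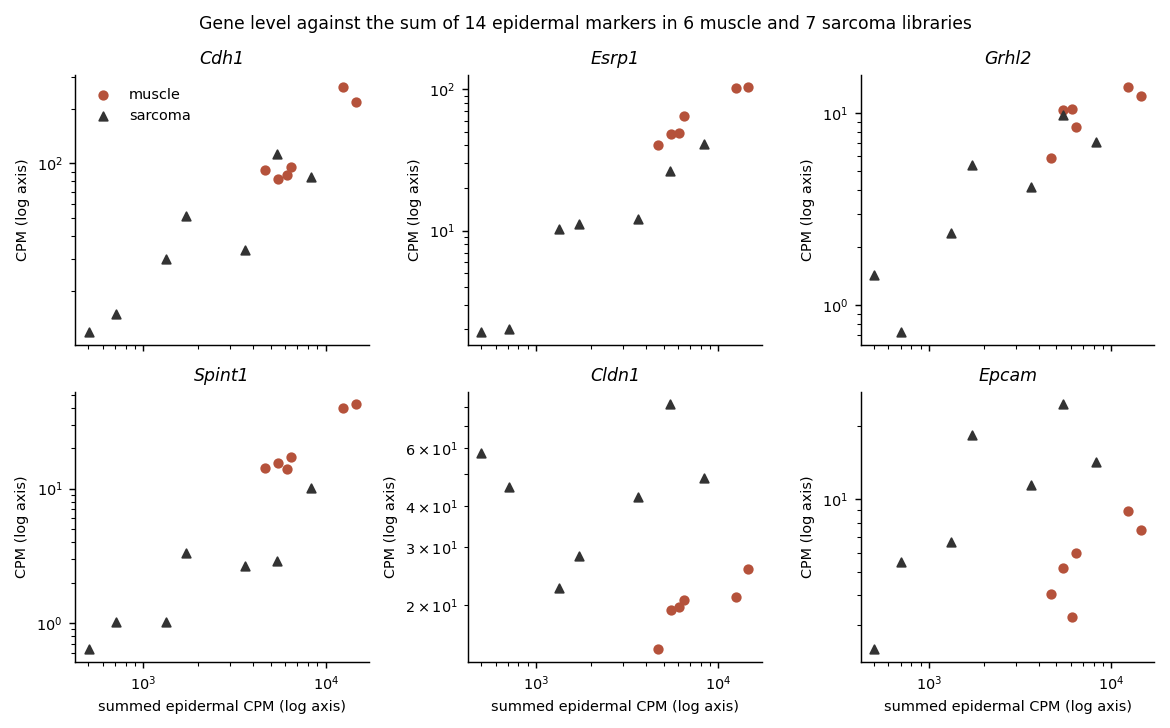
CPM of 6 of the genes against the summed CPM of 14 epidermal markers, both on log axes, in 6 muscle libraries (circles) and 7 sarcoma libraries (triangles). Cdh1, Esrp1, Grhl2 and Spint1 are lowest in the sarcomas with the fewest epidermal markers, while Cldn1 is at 57.8 CPM in the sarcoma with the lowest sum.

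Set against that sum within each library, a ratio that no library scaling changes, the genes parted. Cdh1 was at 14.2 to 21.2 CPM per 1000 CPM of epidermal markers in muscle and at 9.25 to 30.1 in the sarcoma libraries, and Grhl2 at 0.834 to 1.9 and 0.854 to 3.15, so that both overlapped between the tissues. Spint1 was at 2.31 to 3.23 in muscle and at 0.535 to 1.93 in sarcoma, and Esrp1 at 7.1 to 10.1 and 2.87 to 7.66. Cldn4 was at 3.31 to 5.7 in muscle and at 0 to 3.89 in sarcoma, and Esrp2 at 1.2 to 1.92 and 0.756 to 3.07. Of all these genes that fell, only Spint1 was lower in every sarcoma library, and the others overlapped in range.

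Epcam and Cldn1 lay on the other side. Epcam was at 0.513 to 0.951 in muscle and at 1.73 to 10.8 in the sarcoma libraries, and Cldn1 at 1.7 to 3.54 and 5.85 to 115. Neither gene's ranges overlapped. The sarcomas of M00235 and M00248, with 501 and 707 CPM of epidermal markers, had 57.8 and 45.8 CPM of Cldn1, as much as the sarcoma of M00237 with 8287 CPM of markers and 48.5 CPM of Cldn1. These ratios are descriptions with no test, and since the markers themselves differ between the tissues, the ratio depends on the list.

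Other genes of the same pathways moved in sarcoma against muscle as follows. Among tight junction genes outside the claudins above, 10 of 13 tested fell and 1 rose, with Crb3, a polarity protein, at -3.21, Cgn, the scaffold cingulin, at -3.34 and F11r, a junctional adhesion molecule, at -2.34. Of 19 adherens junction and desmosome genes, 14 fell and 2 rose, among the former the desmosomal cadherin Dsc2 at -7.81 and plakoglobin, Jup, at -2.98. All 11 epithelial transcription factors tested fell, with Klf5 at -2.72, Grhl3 at -4.63 and Elf5 at -4.17.

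Spint1 acts on a system of membrane serine proteases. Of 6 genes of the membrane serine protease system, 4 fell and 0 rose, among them matriptase, St14, at -3.95, its activator Prss8 at -3.39 and the second inhibitor Spint2 at -3.0. Of 10 epithelial surface and sorting genes, 9 fell, such as Llgl2 at -3.97 and Cd24a at -3.89.

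Mesenchymal transition genes ran the other way. Of 13, 10 rose and 0 fell, with Zeb2, a repressor that binds CACCTG, at 4.04 (SE 0.25), Cdh2 at 4.46 (SE 0.4) and Cdh11 at 3.49 (SE 0.27). Markers of other cells moved between the same tissues: fibroblast markers summed to 8221 to 32896 CPM in sarcoma and 1324 to 1730 CPM in muscle (6 of 10 higher, 1 lower, median 1.7), and Schwann cell and neural crest markers to 3238 to 6322 and 177 to 380 CPM (8 of 10 higher, 1 lower, median 3.99). Skeletal muscle markers summed to 27.6 to 4805 CPM in sarcoma and 18016 to 33531 CPM in muscle (9 of 10 lower, 0 higher, median -5.14). Their part in the mesenchymal values was not tested. Of 13 other splicing regulators, 8 rose and 3 fell, with Celf2 at 1.69, Tra2b at 0.91 and Rbm47, another factor of epithelial splicing, at -2.04. Each of these lists had a median beyond that of all genes (0.06): -2.22 for tight junctions, -2.98 for adherens junctions and desmosomes, -2.72 for transcription factors, -2.94 for proteases, -3.93 for surface genes, 0.51 for splicing regulators and 0.92 for mesenchymal genes. The last 2 of these medians are smaller than or near the 0.96 by which the choice of scale shifts all genes.

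**Figure D4:**
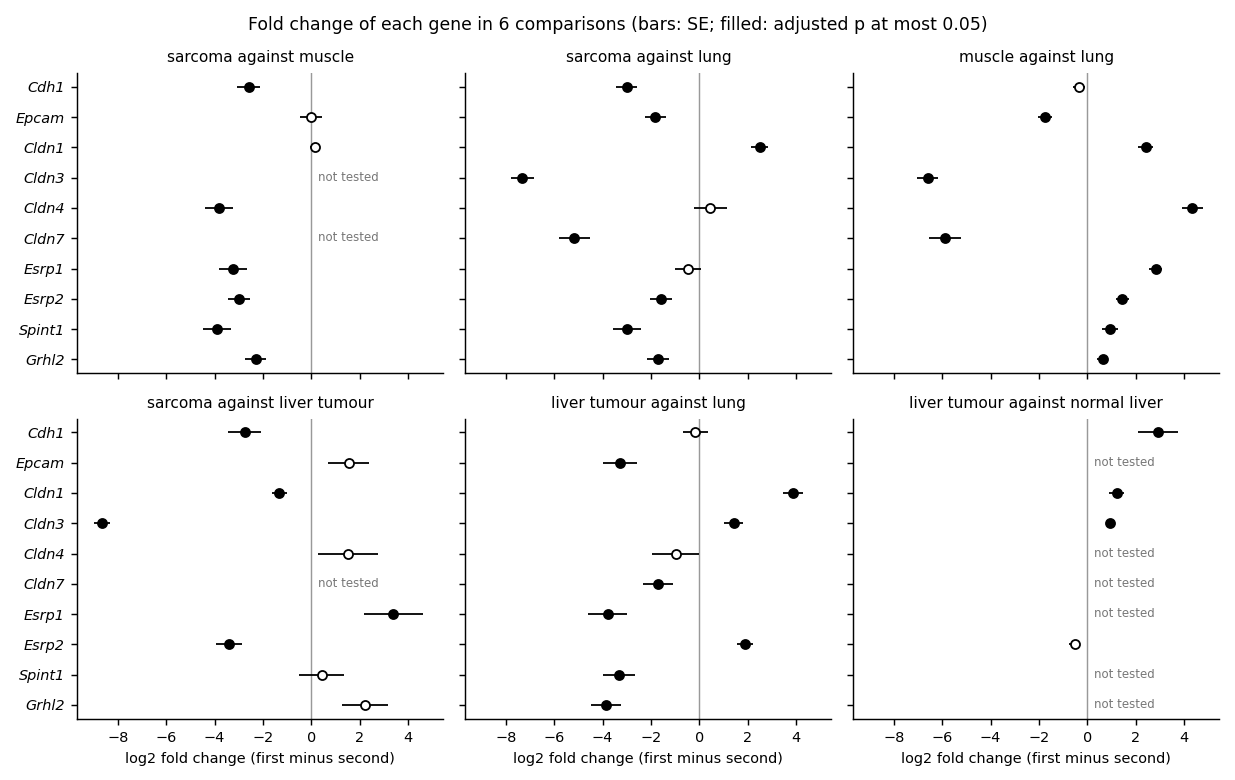
Log2 fold change with its SE (TMM scale, first group minus second) of each gene in 6 comparisons of tissues and tumours, filled where the adjusted p is at most 0.05. In sarcoma against muscle 6 of 8 tested genes lie below 0 and pass, and Cldn1 and Epcam lie at 0.14 and -0.01.

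Against lung, whose alveolar and airway epithelium gave 23106 to 81901 CPM of 10 markers, all 10 genes could be tested. In sarcoma, 7 fell, 1 rose and 2 did not pass, where 41.9% of all 15527 genes passed in either direction, with 23.8% lower and 18.1% higher. The median log2 fold change was -1.77 against -0.01 for all genes. The falls were widest for Cldn3, at -7.32 (SE 0.47, adjusted p = 1.0e-08), and Cldn7, at -5.17 (SE 0.65, adjusted p = 1.1e-05). Both were near the floor in sarcoma, with 24 and 14 counts over 6 mice, so that the sizes of these falls rest on few counts.

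Cdh1 was at -3.0 (SE 0.43), Spint1 at -2.99 (SE 0.57), Epcam at -1.81 (SE 0.45), Grhl2 at -1.72 (SE 0.46) and Esrp2 at -1.59 (SE 0.45), with n = 6 and 7 mice and adjusted p of 0.0089 or less in edgeR. The gene that rose was Cldn1, at 2.5 (SE 0.34, adjusted p = 2.3e-05). Esrp1 (-0.47, SE 0.55, adjusted p = 0.53) and Cldn4 (0.46, SE 0.69, adjusted p = 0.63) did not pass. All 8 calls held under each of 23 alternatives. The epidermal markers stood at a median log2 fold change of 6.62, with 13 of 14 higher in sarcoma, and their part in the values of Esrp1, Cldn4 and Cldn1 was not tested. Without the sarcomas of M00237 and M00245, which held the most of them, Esrp1 was at -1.37 (adjusted p = 0.07), Cldn4 at -0.4 (adjusted p = 0.73) and Cldn1 at 2.45 (adjusted p = 0.00031).

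Among the other tight junction genes 16 of 18 fell against lung and 0 rose, with the alveolar claudin Cldn18 at -9.23 and F11r at -3.67. All 10 endothelial markers were also lower in sarcoma (median -3.81), and their part in these values was not tested. Of 7 genes of the protease system 6 fell, with Tmprss2 at -7.4 and Spint2 at -3.29. Adherens junction and desmosome genes were mixed, with 7 of 17 lower, 4 higher, and the desmosomal Pkp1 at 6.26 beside Pkp2 at -4.09. Of 12 mesenchymal transition genes 7 rose and 0 fell, with Zeb2 at 2.81, Prrx1 at 2.84 and Twist1 at 6.1.

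Muscle against lung compared normal tissues that each hold epithelium, and the claudins lay on both sides. Of 10 tested, 6 were higher in muscle, 3 were lower and 1 did not pass, where 57.9% of 15150 genes passed, 27.6% higher and 30.3% lower. Cldn4 was at 4.35 (SE 0.43, adjusted p = 4.1e-07), Esrp1 at 2.83 (SE 0.28, adjusted p = 3.7e-07) and Cldn1 at 2.42 (SE 0.31, adjusted p = 5.7e-06), with n = 6 and 7 mice. Cldn3 was at -6.6 (SE 0.43, adjusted p = 4.0e-09), Cldn7 at -5.89 (SE 0.67, adjusted p = 1.6e-06) and Epcam at -1.74 (SE 0.3, adjusted p = 1.3e-04). In muscle Cldn3 and Cldn7 were near the floor, with 23 and 4 counts over 6 mice.

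The remaining 3 calls depended on the scale. Esrp2 was at 1.45 (SE 0.28, adjusted p = 3.3e-04), Spint1 at 0.96 (SE 0.33, adjusted p = 0.021) and Grhl2 at 0.64 (SE 0.22, adjusted p = 0.021). On plain library totals these became 0.61 (adjusted p = 0.088), 0.13 (adjusted p = 0.74) and -0.23 (adjusted p = 0.41), the last with the opposite sign, and the count became 3 higher and 4 lower, while all genes went from 4181 higher and 4593 lower to 1987 and 9117. Over 21 alternatives Spint1 kept its call in 14 and Grhl2 in 13. With the mouse as a block Spint1 was at 0.94 (adjusted p = 0.08) and Grhl2 at 0.54 (adjusted p = 0.055).

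Cdh1 did not pass, at -0.34 (SE 0.26, adjusted p = 0.29), but was called lower in muscle on plain totals (-1.17, adjusted p = 0.0027) and without the muscles of M00237 and M00238 (-0.83, adjusted p = 0.003), where Spint1 was at 0.46 and Grhl2 at 0.54, neither called. Of 20 adherens junction and desmosome genes 13 were higher in muscle and 4 lower, and of 13 epithelial transcription factors 10 were higher and 0 lower, with Dsg3 at 8.4, Dsc2 at 7.79, Evpl at 5.21 and Trp63 at 8.19. Tight junction genes were lower in 13 of 18, with Cldn18 at -8.85. All 10 endothelial markers were lower in muscle as well (median -2.53), and their part in this was not tested.

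Sarcoma and liver tumour could be compared for 9 genes with n = 6 and 3 mice. Of these 4 were lower in sarcoma, 1 was higher and 4 did not pass, where 55.8% of 16547 genes passed, 25.7% lower and 30.2% higher. Cldn3, near the floor in sarcoma with 24 counts over 6 mice, was at -8.66 (SE 0.33, adjusted p = 4.9e-08). Esrp2 was at -3.41 (SE 0.54, adjusted p = 3.3e-04), Cdh1 at -2.76 (SE 0.7, adjusted p = 0.0064) and Cldn1 at -1.32 (SE 0.3, adjusted p = 0.0033). Esrp1 was higher in sarcoma, at 3.4 (SE 1.21, adjusted p = 0.033).

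Both splicing factors thus passed in opposite directions. Cldn3 and Esrp2 were called under all 19 alternatives, and the other 3 calls were not. With the mouse as a block Cdh1 was at -2.46 (adjusted p = 0.082) and Cldn1 at -1.33 (adjusted p = 0.17), while Epcam passed at 3.3 (adjusted p = 0.017). Cldn1 was at -0.35 (adjusted p = 0.38) on plain totals, where the 9 genes gave 3 higher and 3 lower and all genes 8564 higher and 2112 lower, against 4989 and 4246 on the TMM scale. Esrp1 was called in 13 of 19 alternatives, and was at 2.41 (adjusted p = 0.12) without the sarcomas of M00237 and M00245. Without the liver tumour of M00248 only 3 genes passed, with Cdh1 at -1.79 (adjusted p = 0.058).

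Among genes not in the 10, Cldn2, a claudin of leaky epithelia and liver, was at -8.59 in sarcoma against liver tumour, and Lsr, a tricellular junction protein, at -5.66, as 13 of 20 tight junction genes were lower and 2 higher. All 8 genes tested of the membrane serine protease system were lower in sarcoma, with Hpn at -6.31, Hgfac at -8.66 and Tmprss2 at -5.78. Other lists went the other way or both ways: of 10 epithelial transcription factors 5 were higher in sarcoma and 1 lower, with a median of 3.68, and of 20 adherens junction and desmosome genes 6 were higher and 6 lower, with a median of 0.43. Of 13 mesenchymal transition genes 10 were higher and 1 lower, with Zeb2 at 4.88 and Cdh11 at 5.83. All 14 epidermal markers and all 10 fibroblast markers were higher in sarcoma, and all 10 hepatocyte markers were lower (median -8.42). The part of such cells in these values was not tested.

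Liver tumour against lung set both against a shared reference tissue. Of the 10 genes 5 were lower in liver tumour, 3 were higher and 2 did not pass, where 46.3% of 16374 genes passed, 24.2% lower and 22.1% higher. Cldn1 was at 3.89 (SE 0.41, adjusted p = 8.5e-06), Esrp2 at 1.9 (SE 0.33, adjusted p = 4.3e-04) and Cldn3 at 1.43 (SE 0.4, adjusted p = 0.011), with n = 3 and 7 mice. Grhl2 was at -3.86 (SE 0.62), Esrp1 at -3.79 (SE 0.82), Spint1 at -3.32 (SE 0.66) and Epcam at -3.29 (SE 0.7), each with an adjusted p of 0.0024 or less.

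Cldn7, at -1.7 (SE 0.61, adjusted p = 0.037), lost its call with the mouse as a block (-1.55, adjusted p = 0.13) and without any 1 of the 3 liver tumours (-1.56, -1.69 and -1.86). Cldn3 lost its call on plain totals (0.51, adjusted p = 0.31), where all genes gave 1772 higher and 7608 lower against 3613 and 3968. Cdh1 (-0.16, SE 0.52, adjusted p = 0.82) and Cldn4 (-0.98, SE 0.97, adjusted p = 0.43) did not pass. Cldn1 was thus above lung in both tumour types, in comparisons that share the lung libraries. This was not particular to tumours, since Cldn1 was also above lung in muscle (log2 fold change 2.42) and in normal liver (by 1.52 in log2(CPM + 1)).

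Liver tumour against normal liver left 4 genes high enough to test. Of them 3 rose in the tumours, 0 fell and 1 did not pass, where 10.6% of 13251 genes passed, 6.98% higher and 3.65% lower. Cldn3 rose, with a log2 fold change of 0.94 (SE 0.17, adjusted p = 0.0043, n = 3 and 8 mice), from at most 71.7 CPM in normal livers to at least 111 CPM in tumours. Cldn1 rose by 1.23 (SE 0.31, adjusted p = 0.024) and Cdh1 by 2.93 (SE 0.83, adjusted p = 0.04), while Esrp2 was at -0.51 (SE 0.23, adjusted p = 0.19).

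The 3 Cdh1 values in tumours, 24.1, 300 and 136 CPM, ran in the order of the summed cholangiocyte markers, at 114, 1654 and 427 CPM for M00236, M00248 and M00249, where normal livers held 78.2 to 213 CPM. The list is not particular to bile ducts in these data, since sarcomas held 230 to 4241 CPM of it. Of those 8 markers 5 were tested in tumours against normal livers, 3 of them higher and 0 lower, with a median log2 fold change of 2.36, while Krt19 was at most at 4.68 CPM and Krt7 at 2.66 CPM in tumours. The part of such cells in the Cdh1 values was not tested. All 3 calls were lost with the mouse as a block, which only M00236 and M00248 inform (Cldn3 1.08, adjusted p = 0.81; Cldn1 1.48, adjusted p = 0.67; Cdh1 2.28, adjusted p = 0.97), and there 0 of all genes passed. Leaving out the tumour of M00248 left only Cldn3 called (0.88, adjusted p = 0.019), with Cdh1 at 1.95 and Cldn1 at 1.08. Over 18 alternatives Cldn3 was called in 17, Cldn1 in 13 and Cdh1 in 9. Without the tumour of M00249, or without the normal liver of M00238 or M00248, again 1 gene was called, and the split of all genes went from 925 higher and 483 lower to 1388 and 330 on plain totals.

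Around these genes, 4 of 16 tight junction genes rose in the liver tumours and 1 fell, with Pard6b, a polarity protein, at 1.91 and Marveld2, a tricellular junction protein, at 0.99. Of 5 epithelial transcription factors 3 rose, Klf4 at 2.66, Elf3 at 3.26 and Ehf at 1.96, and of 6 genes of the protease system 2 rose, Prss8 at 2.61 and Tmprss4 at 3.74.

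The single kidney, which has no replicate, held all 10 genes above the floor of 3 counts, with Cdh1 at 135 CPM and 95% exact binomial limits of 126 to 143 CPM, and Spint1 at 29.6 CPM with limits of 25.8 to 33.9 CPM. The intestine tumour held Epcam and Spint1 but little else: its libraries gave 2.27 and 2.71 CPM of Cdh1, 0.4 and 0.588 CPM of Cldn1, and at most 0.706 CPM of any other member. Spleen, rich in leukocytes, had a like set, with Epcam at 1.69 to 8.12 CPM, Spint1 at 0.61 to 4.27 CPM and Cdh1 at 1.9 to 5.68 CPM. No test was made with 1 mouse. In the 2 brains Cdh1 was at 10.4 and 5.45 CPM, and Cldn4 and Cldn7 were at 0 in both.

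In fibroblasts, which are mesenchymal, the 10 genes were low in all 18 libraries. Spint1 reached 11.7 CPM with a median of 2.12, Esrp2 4.83, Cdh1 4.47 and Cldn4 4.11 CPM, while Grhl2 was at 0 in 17 and Esrp1 at 0 in 16 of 18 libraries. Only Cdh1, Esrp2 and Spint1 could be tested. In passage 3 against passage 1, 0 of 3 passed, where 2.82% of 12051 genes did, 1.81% higher and 1.01% lower, with Spint1 at -1.45 (SE 0.52, adjusted p = 0.15; unadjusted p = 0.013).

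Nrg1 (ENSMUSG00000062991), read as a check of the genotype labels, was at 132 and 147 CPM in the libraries labelled negative of embryo 1 and at 0.644 and 1.28 CPM in the libraries labelled homozygous of embryo 3, against both labels. The other embryos labelled negative lay between 0.485 and 1.57 CPM, those labelled heterozygous between 32.3 and 75.1 CPM and those labelled homozygous between 84.9 and 158 CPM. With groups as labelled, 0 of 3 genes passed in homozygous or heterozygous against negative at either passage, where 0% of all genes passed. No member was under an unadjusted p of 0.05 there, the lowest being 0.32 for Cdh1. DESeq2 called 0 of those it tested, and 0 were called in the genotype comparisons without embryos 1 and 3. Without embryo 7, Cldn4 also became testable and was called higher in the fibroblasts labelled homozygous at passage 1. Those were then embryos 3 and 10, and embryo 3 is low in Nrg1 against its label. Over all 3 embryos of that group Cldn4 was at 0.734 to 4.11 CPM, with 29 counts in all. That setting also called 891 of all genes, and a link of this call to the fusion was not tested.

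For each gene, the other genes with the highest Pearson correlation of log2(CPM + 1) over the 42 tissue libraries were taken from 14983 ranked genes, as a description with shared tissues behind every point. Closest to Cdh1 was Ajuba (0.91), an adaptor at cadherin junctions, followed by Ripk4 (0.89) and Arhgef5 (0.88). Grhl2 was followed by Atp6v1c2 (0.96), Rassf9 (0.95) and plakoglobin, Jup (0.95), and Esrp1 by Rab25 (0.97) and Pof1b (0.96). The patterns of Spint1 were nearest to Ap1m2 (0.9), Bspry (0.89) and Ehf (0.88), and those of Epcam to Krtcap3 (0.92), Bmp4 (0.89) and Sypl (0.89).

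The claudins had different neighbours in this measure. Cldn4 was closest to Bicdl2 (0.95), Ephx3 (0.95) and Mall (0.94), Cldn3 to Foxa2 (0.97), a factor of liver and lung, Hc (0.96) and Krt18 (0.96), and Cldn7 to Prr15l (0.92), Smim6 (0.91) and Krt7 (0.9). Among the genes nearest to Cldn1 were Deptor (0.86) and Tob1 (0.85), and Esrp2 was closest to Tmem30b (0.9), Foxq1 (0.9) and C2cd2 (0.89). By Spearman correlation the nearest 3 genes shared 2 with this list for Epcam and Spint1, 1 for Cdh1, Cldn4, Esrp1, Esrp2 and Grhl2, and 0 for Cldn1, Cldn3 and Cldn7.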

How the data were processed

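Expected counts for each gene, as deposited, came from 3′ end libraries (QuantSeq, per the labels' protocols), made by the authors with an aligner and build not given in the sources used here. They were rounded to whole numbers, since 8.35% of tissue and 6.6% of fibroblast values were not whole. The deposited CPM tables were not used. One fibroblast column of embryo 8 is named passage 5 and its sample's labels name both passage 1 and passage 3; it was taken as passage 3, as its group label says. The 85 rows without a symbol held at most 0.0117% of a library. Both sarcoma libraries of M00245 were summed. The main test was the edgeR 4.0.16 quasi-likelihood F test (R 4.3.3), which is two-sided here. TMM factors scaled the libraries, filterByExpr with a minimum count of 10 chose the genes, and p-values were adjusted by Benjamini-Hochberg over all those tested, with a threshold of 0.05. Each fit used the 2 groups compared, or all 6 fibroblast groups. SE were derived from the F statistic. Levels used a pseudocount of 1 for log2. Fits were tested on simulated counts with 200 genes changed by known folds. Of 2-fold changes, 35.1% were recovered in sarcoma against muscle, 9.18% in liver tumour against normal liver and 1.03% in liver tumour against lung. Of 4-fold changes, the shares were 81%, 54% and 35.7%. Homozygous against negative fibroblasts at passage 1 gave 39.4% and 84.4%. A gene that did not pass may therefore still differ.

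The 10 genes, gene lists and tests were chosen with earlier results of these data known. Beside the 10, the rule for named genes took up to 3 called genes per list and comparison by smallest adjusted p, and the 3 genes most like each; many of these are not reported here. Alternatives were other scaling, DESeq2 1.42.0, no filter, a mean of 5 CPM, left-out samples, removed mitochondrial, haemoglobin and immunoglobulin genes, and the mouse or embryo as a block; plain library totals and the epidermal-rich libraries left out were added after seeing the data. Tissues of the same mouse pair by their labels; the correlation of their deviations ran from -0.15 to 0.33, and from 0.05 to 0.34 between passages of an embryo. Nothing says that fibroblast cultures of an embryo were separate beyond passage. No pair of libraries agreed within sampling noise.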

Additional observations from a re-analysis of the deposited data

Results flagged for a closer look

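Among 50 sets of 1 gene in 1 group of 4 to 10 mice, 2 held a sample whose gap to the next was wide against the group's range, where chance gives about 1 in 20. Both were the lung of M00238, with Cldn1 at 18 CPM, where the other 6 lungs were at 4.06 to 7.33 CPM, and Spint1 at 6.66 CPM, where the others were at 19.0 to 31.3 CPM. That lung also held the most Epcam (70.4 CPM), Cldn3 (186 CPM) and leukocyte markers (9502 CPM, others at most 5241 CPM). The part of these in its values was not tested. Without it, Cldn1 was at 2.89 and Spint1 at -3.15 in sarcoma against lung, and at 2.75 and 0.74 in muscle against lung, all still called by edgeR.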

How the results depend on the processing

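Of 1032 alternative values for the tissue comparisons 958 kept direction and side of the threshold, 48 lost the call, 10 gained it and 16 changed sign; of 193 for fibroblasts 171 kept them and 22 changed sign. The cause was not tested.

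Genes called in sarcoma against liver tumour ranged from 3 to 7 when 1 sample was left out, 3 without the liver tumour of M00248. In liver tumour against normal liver they ranged from 1 to 4, and the mouse as a replicate block gave 0. The ranges were 6 to 6 in sarcoma against muscle, 8 to 8 in sarcoma against lung, 7 to 9 in muscle against lung and 7 to 8 in liver tumour against lung.

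Signs turned only for values that were not called, except Grhl2 in muscle against lung (-0.23 on plain totals). Epcam in sarcoma against muscle became 0.89 on plain totals, 0.03 with a mean of 5 CPM as filter, 0.09 and 0.01 without the muscles of M00237 and M00238 in turn and 0.18 without both, 0.19, 0.11 and 0.13 without the sarcomas of M00235, M00238 and M00248, and 0.12 with the T1 sarcoma of M00245 alone. Cldn4 in sarcoma against lung became -0.4 without the sarcomas of M00237 and M00245. Spint1 in sarcoma against liver tumour became -0.09 without the liver tumour of M00236, -0.33 without the sarcoma of M00237 and -0.46 without the sarcomas of M00237 and M00245, up to 0.88 without the liver tumour of M00248. Cdh1 in liver tumour against lung became 0.28 with the mouse as a block and 0.34 without the liver tumour of M00236, down to -1.12 without that of M00248.

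In fibroblasts, passage 3 against 1 gave Cdh1 0.06 without embryo 3 and 0.23 without embryo 6, and Esrp2 -0.34, -0.25 and -1.67 without embryos 5, 6 and 7, and -0.08 with the embryo as a replicate block; their other extremes were -0.6 without embryo 10 and 0.69 without embryo 8. Homozygous against negative at passage 1 gave Spint1 0.3, 0.23 and 0.07 without embryos 10, 3 and 8, and 0.39 without embryos 1 and 3. Without embryo 7 Spint1 was at -3.07, and 1 of the 10 genes was called, Cldn4, against 0 otherwise. That setting called 891 of all genes. At passage 3 Esrp2 was at 0.14 without embryo 5 and -5.85 without embryo 7. Heterozygous against negative at passage 1 gave Spint1 0.13, 0.37, 0.04 and 0.27 without embryos 1, 2, 6 and 8, 0.13 without embryos 1 and 3, and -0.67 without embryo 4. At passage 3 it gave Cdh1 -0.12, -0.93 and -0.07 without embryos 1, 2 and 8, and -0.12 without embryos 1 and 3, and Esrp2 -1.38 and -0.23 without embryos 6 and 8; without embryo 5 they were at 0.65 and 0.99.

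Of all genes, the mouse block called 4020 in sarcoma against lung (6510 without it), 3895 in sarcoma against liver tumour (9235), 4068 in liver tumour against lung (7581) and 0 in liver tumour against normal liver (1408), the last 860 without the liver tumour of M00248. Passage 3 against 1 had 340 called, 590 with DESeq2, 515 with no filter and 30 to 779 with 1 embryo left out. Homozygous against negative at passage 1 had 0 called, 24 with DESeq2, 30 with no filter, 891 without embryo 7 and 2 without embryos 1 and 3.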
